A study of Mus musculus with 3 samples.

Results

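The regions described here are the single introns of very long mouse genes, those whose introns add up to at least 316228 bp. The rule took 7917 introns of 393 genes, out of 186910 introns of 21846 genes with introns in the annotation used for counting. These introns covered 220.868 Mb, which was 24.9% of all intron sequence. The 393 genes had a median of 15 introns each (1 to 104), the median intron was 5793 bp long, and 598 introns were 100 kb or longer, up to 814726 bp.

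The cells were mouse neurons of the medial ganglionic eminence (MGE), a source of many cortical inhibitory interneurons in the embryo. All 3 cultures are labelled wild type. They came from C57Bl/6 embryos at embryonic day 14 and were kept in culture for 10 days. On day 9 all cultures were silenced overnight with TTX and AP-5, which block sodium channels and NMDA receptors, and this includes the 0 h culture. The cells were then depolarized with 55 mM extracellular KCl for 0, 1 or 6 h, and a strand-specific library of total RNA without ribosomal RNA was made for each time. With 1 library per time there is no spread between cultures, so no p-value is given. Every interval covers counting error only, and PCR copies of a molecule are counted as separate reads. In bulk RNA, fewer cells that express a gene and less RNA of it per cell cannot be told apart.

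RNA polymerase II copies a gene from its start to its end, and each intron is cut out of the precursor RNA and degraded, mostly soon after it has been copied. Intronic reads in total RNA therefore come mainly from precursor RNA and excised introns, and in a very long gene the introns near the start are copied well before those near the end. Membrane depolarization opens voltage-gated calcium channels, and calcium signalling to the nucleus then changes the transcription of many neuronal genes. Very long genes in neurons often encode adhesion molecules, receptors, ion channels and synaptic scaffolds.

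Introns near the start mostly had fewer reads at 1 h than at 0 h. In the first of 3 sections of each gene 1029 introns were compared. Their median ratio of scaled reads was 0.576, where that of all introns of all genes was 0.652. At least 2-fold lower were 326 (31.7%), and 3 were higher (0.292%). Over all introns of all genes 28.1% were lower and 4.36% higher, so the share called lower was near that background. The start regions of 4 genes, chosen after their values were seen, are shown so that both directions can be compared. They do not reflect how often each direction occurred. In Reln (reelin, a secreted glycoprotein made by interneurons) and Atrnl1 (attractin-like 1, a membrane protein) intron 1 had more reads at 1 h than at 0 h. In Adcy2 (an adenylyl cyclase) and Supt3h (Supt3, a subunit of the SAGA coactivator complex) intron 2 had fewer. These introns 2 are centred 64.3 and 77.8 kb from the start, so the positions compared differ between the genes. Each sequence is the 250 bases before the RefSeq start, 5′ to 3′ along the gene, on build GRCm38.p6, with every CpG dinucleotide in capitals. Reln is at chr5:22344706-22344955 (minus strand), Atrnl1 at chr19:57610784-57611033 (plus strand), Adcy2 at chr13:68999542-68999791 (minus strand) and Supt3h at chr17:44776916-44777165 (plus strand).
Reln: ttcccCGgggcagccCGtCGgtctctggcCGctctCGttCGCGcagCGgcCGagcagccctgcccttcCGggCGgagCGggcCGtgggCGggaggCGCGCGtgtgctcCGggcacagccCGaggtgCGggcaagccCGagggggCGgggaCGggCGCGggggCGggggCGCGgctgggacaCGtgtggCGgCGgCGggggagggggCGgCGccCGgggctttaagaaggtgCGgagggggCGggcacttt
Atrnl1: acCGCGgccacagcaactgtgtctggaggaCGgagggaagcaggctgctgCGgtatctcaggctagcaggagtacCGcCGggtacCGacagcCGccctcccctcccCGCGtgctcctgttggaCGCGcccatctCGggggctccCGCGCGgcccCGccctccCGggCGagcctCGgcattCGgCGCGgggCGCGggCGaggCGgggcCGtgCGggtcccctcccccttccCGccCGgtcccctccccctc
Adcy2: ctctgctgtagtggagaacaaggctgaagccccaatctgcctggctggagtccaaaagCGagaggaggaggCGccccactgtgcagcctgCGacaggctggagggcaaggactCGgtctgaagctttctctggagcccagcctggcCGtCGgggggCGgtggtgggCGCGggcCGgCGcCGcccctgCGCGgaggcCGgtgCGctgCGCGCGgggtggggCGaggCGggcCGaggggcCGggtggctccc
Supt3h: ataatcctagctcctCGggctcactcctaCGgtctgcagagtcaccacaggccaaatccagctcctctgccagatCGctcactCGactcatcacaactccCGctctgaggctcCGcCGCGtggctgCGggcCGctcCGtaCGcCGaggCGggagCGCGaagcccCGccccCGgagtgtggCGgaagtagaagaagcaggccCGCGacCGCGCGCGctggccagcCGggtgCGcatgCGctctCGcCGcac
These stretches held 37, 31, 23 and 30 CpG dinucleotides. The median of all 32851 RefSeq promoters of this length was 6, and that of the 431 promoters of very long genes, which matched 294 gene symbols, was 11. Letters known from activity-regulated promoters were searched on both strands: TGACG and TGACGTCA (the cAMP response element, whose letters contain the former), TGANTCA (AP-1), GCGTGGGCG (EGR) and the CArG box. None of the 4 sequences held any of them. Of all 250-base promoters 17.8% held TGACG, 1.55% TGACGTCA, 6.75% TGANTCA, 0.536% GCGTGGGCG and 1.47% a CArG box. A missing match says only that these letters are not in this window.

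Sense reads in introns of the very long genes numbered 506135, 348309 and 499915, from library totals of 8996897, 8549377 and 8579378 uniquely mapped reads in time order. These made up 23.8%, 19.5% and 23.9% of all sense intronic reads. Reads were compared between libraries after scaling by sense exonic reads with TMM (trimmed mean of M-values). As labelled, the 6 markers of MGE interneurons were abundant, with 8036, 8660 and 12227 exonic reads at 0, 1 and 6 h. The 4 of excitatory cortical neurons had 5, 8 and 2, and the 3 of microglia 1, 0 and 0. The 4 markers of astrocytes and radial glia had 3687, 4536 and 4589 reads and the 4 of oligodendrocytes and their precursors 232, 268 and 271. Other cells were thus present at each time, and their part in the results was not tested. Of the 7917 introns, 2486 had at least 20 reads in at least 1 library and 1077 had none in any.

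At 1 h, reads in the introns of very long genes were lower than at 0 h along the whole gene. The ratio to 0 h was lowest in the first of 3 sections by intron order. By distance it was lowest between 50 and 200 kb from the start, as given below. The introns of a gene were split by their order into 3 sections of equal number, called start, middle and end. This was possible in 384 genes with at least 3 introns. The start section had 325279, 215546 and 326503 reads at 0, 1 and 6 h, the middle section 86873, 63735 and 84227, and the end section 80377, 60235 and 76830. After scaling, the 1 h level was 0.591 times the 0 h level in the start section (95% counting interval 0.588 to 0.594), 0.654 times in the middle section (0.648 to 0.661) and 0.668 times in the end section (0.661 to 0.675). The scaling moves all 3 values together. Scaling by all mapped reads instead raised the log2 ratio of 1 h to 0 h by 0.24 and that of 6 h to 0 h by 0.15, so levels are read relative to those offsets, whereas a ratio between sections of 1 gene does not depend on the scaling. At 6 h the level was 0.949, 0.917 and 0.904 times that of 0 h from the start to the end section. Under the scaling by mapped reads these were 1.053, 1.017 and 1.002, so their direction against 0 h turned with the scaling.

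The balance between the ends was measured by dividing the ratio in the start section by the ratio in the end section, called the shift here. For all very long genes together it was 0.884 from 0 to 1 h (0.874 to 0.895), 1.05 from 0 to 6 h (1.04 to 1.06) and 1.19 from 1 to 6 h (1.17 to 1.20). The value from 0 to 1 h was closer to 1 at other length limits, 0.976 at 200000 bp and 0.924 at 500000 bp. Without first introns the value from 0 to 6 h was 0.995 (0.983 to 1.007) and in introns under 100 kb it was 1.01 (0.995 to 1.03), both with intervals that include 1. Genes of intermediate intron length, from 31623 bp up to the limit, had a shift of 1.11 from 0 to 1 h (1.10 to 1.12), on the other side of 1, while the median over genes of this class was 0.939, on the same side. Genes with shorter introns had 0.893 (0.883 to 0.902). With sections of equal intron length in place of intron number, the very long genes stayed at 0.887 while the intermediate and short classes stood at 0.990 and 0.971.

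**Figure D1:**
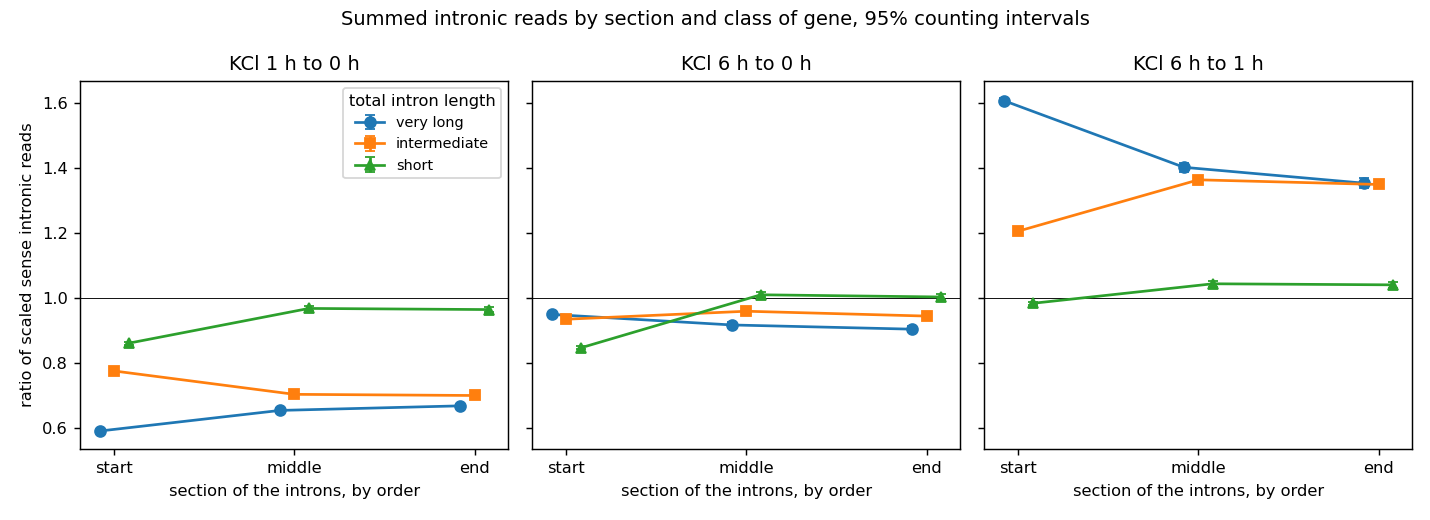
Ratio of TMM-scaled sense intronic reads between 2 libraries (y axis) in the start, middle and end section of the introns by order (x axis), for very long, intermediate and short total intron length; bars are 95% counting intervals, mostly smaller than the symbols. At 1 h the very long genes lie lowest in the start section, at 0.591, and from 1 to 6 h the same section gained most, at 1.61.

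Distance from the gene's start gave a finer picture, in which the lowest levels at 1 h lay between 50 and 200 kb. Introns centred within 50 kb of the start had 11573, 8972 and 12946 reads at 0, 1 and 6 h, and their 1 h level was 0.691 times that of 0 h (0.673 to 0.711). Between 50 and 100 kb the reads were 40490, 23990 and 39806 and the 1 h level was 0.528 times that of 0 h (0.520 to 0.537). Between 100 and 200 kb it was 0.567, and from 200 to 400 kb, 400 to 800 kb and beyond 800 kb it was 0.635, 0.651 and 0.644. The low stretch is thus followed by nearly level values by distance from the start. By distance to the gene's end the 1 h level was not flat. It was 0.607 beyond 800 kb from the end, 0.614 from 400 to 800 kb and 0.587 from 200 to 400 kb. Nearer the end it was 0.603 from 100 to 200 kb, 0.666 from 50 to 100 kb and 0.706 within 50 kb (0.695 to 0.717). Distances below are again from the start.

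Single genes with few or many reads weigh the same in a median over genes, and this gave 0.535 within 50 kb (123 genes, quartiles 0.394 to 0.784), 0.491 from 50 to 100 kb (162 genes, 0.405 to 0.625), 0.541 from 100 to 200 kb (268 genes) and 0.641 from 200 to 400 kb (330 genes). The level within 50 kb thus depended on how genes were weighted, 0.691 summed against 0.535 as a median, and its quartiles were the widest of the 6 distances. In the 100 to 200 kb bin 267 of 268 genes were below their 0 h level. Introns shorter than 50 kb, taken alone, gave 0.627, 0.543, 0.572, 0.708, 0.704 and 0.707 from the nearest to the farthest distance, so the low stretch was also present among introns of ordinary length. Without Camk1d, a gene with many reads between 200 and 400 kb, that bin was at 0.649. At 6 h the summed ratio to 0 h was 1.06 within 50 kb (1.03 to 1.09), 0.930 from 50 to 100 kb and 1.01 from 100 to 200 kb, and it declined to 0.845 beyond 800 kb (0.833 to 0.857). The 6 h medians over genes were 0.886 within 50 kb (71 of 122 genes below 1), 0.860 from 100 to 200 kb and 0.829 beyond 800 kb. Introns shorter than 50 kb gave 0.970, 0.894, 0.955, 1.02, 0.932 and 0.923 from the nearest to the farthest distance. The 6 h level above 0 h within 50 kb was thus not seen in these 2 measures.

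**Figure D2:**
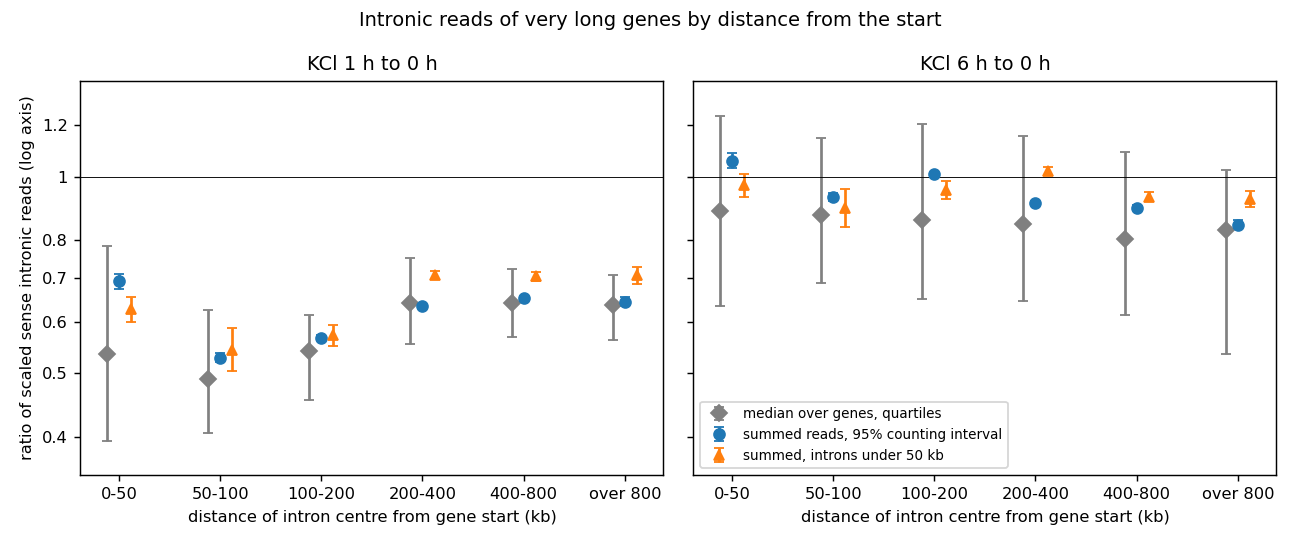
Ratio of scaled sense intronic reads (y axis, log) by distance of the intron's centre from the gene's start (x axis, kb) in very long genes, at 1 h and at 6 h against 0 h; circles are summed reads, triangles summed reads of introns under 50 kb, both with 95% counting intervals, and diamonds are medians over genes with quartiles. At 1 h all 3 measures are lowest from 50 to 100 kb and level off beyond 200 kb.

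The length of an intron and its place in the gene go together, since 402 of the introns of 100 kb or more lay in the start section. Within each class of intron length the 1 h ratio was still lowest in the start section. Introns under 10 kb gave 0.680, 0.713 and 0.726 from the start to the end section, introns of 10 to 100 kb gave 0.600, 0.656 and 0.684, and those of 100 kb or more gave 0.586, 0.631 and 0.630. In every section the ratio was lower for longer introns, from 0.680 to 0.586 in the start section.

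An intron was called higher or lower when its scaled reads differed at least 2-fold with an interval that left out 1, given a minimum of 20 reads in either library. At 1 h, 558 of 2289 compared introns were lower and 7 were higher than at 0 h. Over all introns of all genes 28.1% were lower and 4.36% higher, and the 24.4% of the very long genes' introns is close to that background. By position, 326 of 1029 introns were lower in the start section (31.7%), 138 of 701 in the middle (19.7%) and 93 of 550 in the end section (16.9%). First introns were lower in 95 of 249 cases (38.2%). Introns in the start section had more reads, which makes a call easier, and the part of this in the counts was not tested. The median ratios were 0.576, 0.652 and 0.669 from the start to the end section. On the antisense strand 1 of 87 compared introns was higher and 55 were lower at 1 h, where 4.09% and 23.8% of all introns were. At 6 h 1 of 85 was higher and 56 were lower than at 0 h, where 4.96% and 25.6% of all introns were.

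Summed over their introns, 377 of 379 very long genes were below their 0 h level at 1 h with a median ratio of 0.588, and over all genes compared 6747 of 8143 were, with a median of 0.630. Of the very long genes 67 were at least 2-fold lower and 0 higher, where 27.2% of all genes were lower and 2.59% higher. Their exonic reads had a median ratio of 0.915, with 1 gene higher and 3 lower of 323, where 1.58% of all genes were higher and 1.43% lower with a median of 1.006. The exonic median of the very long genes was thus above their intronic median, and this order does not depend on the scaling. How close each lies to 1 does depend on it. The scaling was set from exonic reads, which keeps the typical exonic ratio near 1. Scaling by all sense intronic reads raises the log2 ratio of 1 h to 0 h by 0.41 for both.

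Gene by gene, the start section was below its 0 h level in 279 of 288 genes and the end section in 266, with medians of 0.564 and 0.686. A gene's shift was called when it was at least 2-fold, its exact interval excluded 1, and both sections had at least 20 reads over the 2 libraries. At 1 h, 29 genes shifted to the end section and 7 to the start section. Over all 3638 genes compared, 6.54% shifted to the end section and 3.57% to the start section, and the very long genes stood at 10.1% and 2.43%. Their median shift was 0.833, with 205 of 288 below 1, where the intermediate class had 0.939 and the short class 0.964. From 1 to 6 h the direction turned: 40 of 284 genes shifted to the start section and 10 to the end section (background 5.47% and 4.41%), with a median of 1.29. The comparisons of 1 h with 0 h and of 6 h with 1 h share the 1 h library, so these counts are not independent. From 0 to 6 h 13 of 291 genes shifted to the start section and 9 to the end section (background 2.97% and 3.33%), with a median of 1.06.

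**Figure D3:**
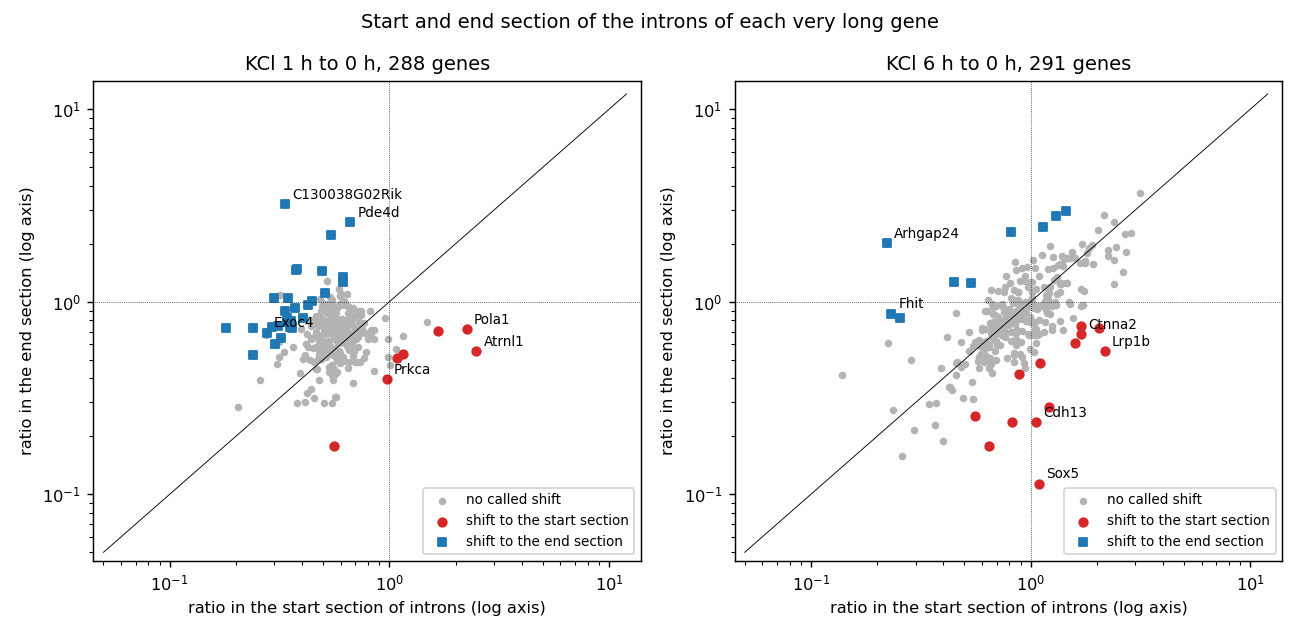
Ratio of scaled reads in the start section of the introns (x axis, log) and in the end section (y axis, log) for each very long gene, at 1 h and at 6 h against 0 h; the line marks equal ratios and colours mark called shifts. At 1 h most genes lie above the line and below 1 on both axes, and Atrnl1 and Pola1 stand apart with a start section above 1.

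Among the 29 genes with a called shift to the end section at 1 h were several in which the reads dropped in introns near the start and stayed nearer to their 0 h level farther on. Adcy2, which makes cyclic AMP, lies at chr13:68758920-69138419 on the minus strand (mm9). Its intron 2, centred 64.3 kb from the start, had 109, 25 and 96 reads at 0, 1 and 6 h. Intron 3 at 157 kb had 74, 30 and 69, and intron 4 at 232 kb had 67, 62 and 57. The ratio of 1 h to 0 h rose along these introns from 0.205 (0.127 to 0.318) to 0.362 (0.228 to 0.560) and 0.825 (0.575 to 1.18). Only the first 2 of these intervals exclude 1, and neighbouring intervals overlap for introns 2 and 3 but not for introns 3 and 4.

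Supt3h (chr17:44914120-45256233, plus strand, mm9) had its lowest of these ratios in intron 2, with 221, 56 and 96 reads 77.8 kb from the start. Its intron 3 had 89, 61 and 54 at 180 kb, and intron 11 had 116, 100 and 37 at 307 kb. The 1 h ratios were 0.226 (0.165 to 0.304), 0.611 (0.434 to 0.856) and 0.769 (0.582 to 1.01). By 6 h intron 11 was the lowest of these 3 relative to 0 h. From 1 to 6 h its start section went from 123 to 166 reads while its end section went from 114 to 43, a shift of 3.58 (2.30 to 5.59).

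In Exoc4, a subunit of the exocyst complex that tethers secretory vesicles, the start section had 174, 54 and 136 reads and the end section 239, 185 and 170, a shift of 0.401 at 1 h (0.274 to 0.583). With sections of equal intron length it was 0.525, short of the 2-fold limit. Slc4a4, a sodium bicarbonate cotransporter, had 47, 3 and 78 reads in intron 1 (chr5:89316350-89363773, mm9), the intron nearest its start. Its intron 3 at 104 kb had 122, 34 and 193 reads and intron 6 at 178 kb had 81, 41 and 92, so the 1 h library was low in each and least low in the farthest. Among the introns of very long genes called lower at 1 h, intron 1 of Slc4a4 had the lowest upper bound, with a ratio of 0.0569 (0.0113 to 0.177). A830018L16Rik had 58, 9 and 86 reads in intron 1 at 49.2 kb. Low introns were also found in genes without a called shift: Mast4, a kinase linked to microtubules, had 26, 2 and 11 in intron 1, and 1300010F03Rik (Vwa8) had 23, 2 and 9 in intron 2.

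Fewer genes went the other way, with introns near the start above their 0 h level while those farther on were below it. Reln (chr5:21390272-21850523, minus strand, mm9) had 449, 748 and 1245 reads in intron 1, centred 29.1 kb from the start. Intron 2 at 87.4 kb had 420, 329 and 1163 reads and intron 3 at 145 kb had 260, 82 and 633. The 3 introns are of nearly equal length (57.2, 59.2 and 56.2 kb). Their 1 h ratios were 1.49 (1.32 to 1.67), 0.699 (0.603 to 0.809) and 0.281 (0.217 to 0.362), with no overlap between the intervals. At 6 h all 3 were above 0 h by a similar factor, 2.62, 2.62 and 2.30. The start section of Reln's 64 introns as a whole hides this step, since its shift at 1 h was 1.16 (1.01 to 1.33).

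Prkca (protein kinase C alpha, a calcium-dependent kinase; chr11:107799562-108205242, minus strand, mm9) had 3, 24 and 14 reads in its intron 1 of 2.82 kb. It had 313, 425 and 661 in intron 2 of 148 kb and 203, 134 and 426 in intron 3 at 219 kb. The 1 h ratios fell from 7.13 (2.17 to 37.0) to 1.21 (1.04 to 1.41) and 0.589 (0.470 to 0.736). The end section of the gene, with 45, 20 and 112 reads, stood at 0.396. Prkca exons had 147, 149 and 387 reads, nearly equal at 0 and 1 h and higher at 6 h.

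Atrnl1 (chr19:57685535-58207833, plus strand, mm9) had the clearest shift to the start section at 1 h, 4.497 (3.22 to 6.33), which was 2.004 (1.54 to 2.61) with sections of equal intron length. Its start section had 58, 162 and 147 reads and its end section 665, 413 and 1164. Intron 1 at 9.32 kb had 21, 83 and 56 reads and intron 3 at 23.4 kb had 7, 27 and 22, while the long intron 26 at 256 kb had 284, 145 and 471. The reads at 1 h were thus above 0 h at the start and below it in the far introns, and at 6 h they were above 0 h at both ends. Pola1, the catalytic subunit of DNA polymerase alpha, had 19, 48 and 49 reads in its start section and 310, 251 and 632 in its end section, a shift of 3.12 (1.74 to 5.76), which was 1.19 with sections of equal intron length. Only 3 genes had a start section above and an end section below 0 h with both intervals excluding 1: Atrnl1, Pola1 and Dlgap2. The last, a postsynaptic scaffold, overlaps another gene on the same strand, so that its reads may be shared, and its shift of 2.16 turned to 0.895 (0.540 to 1.46) with sections of equal intron length.

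**Figure D4:**
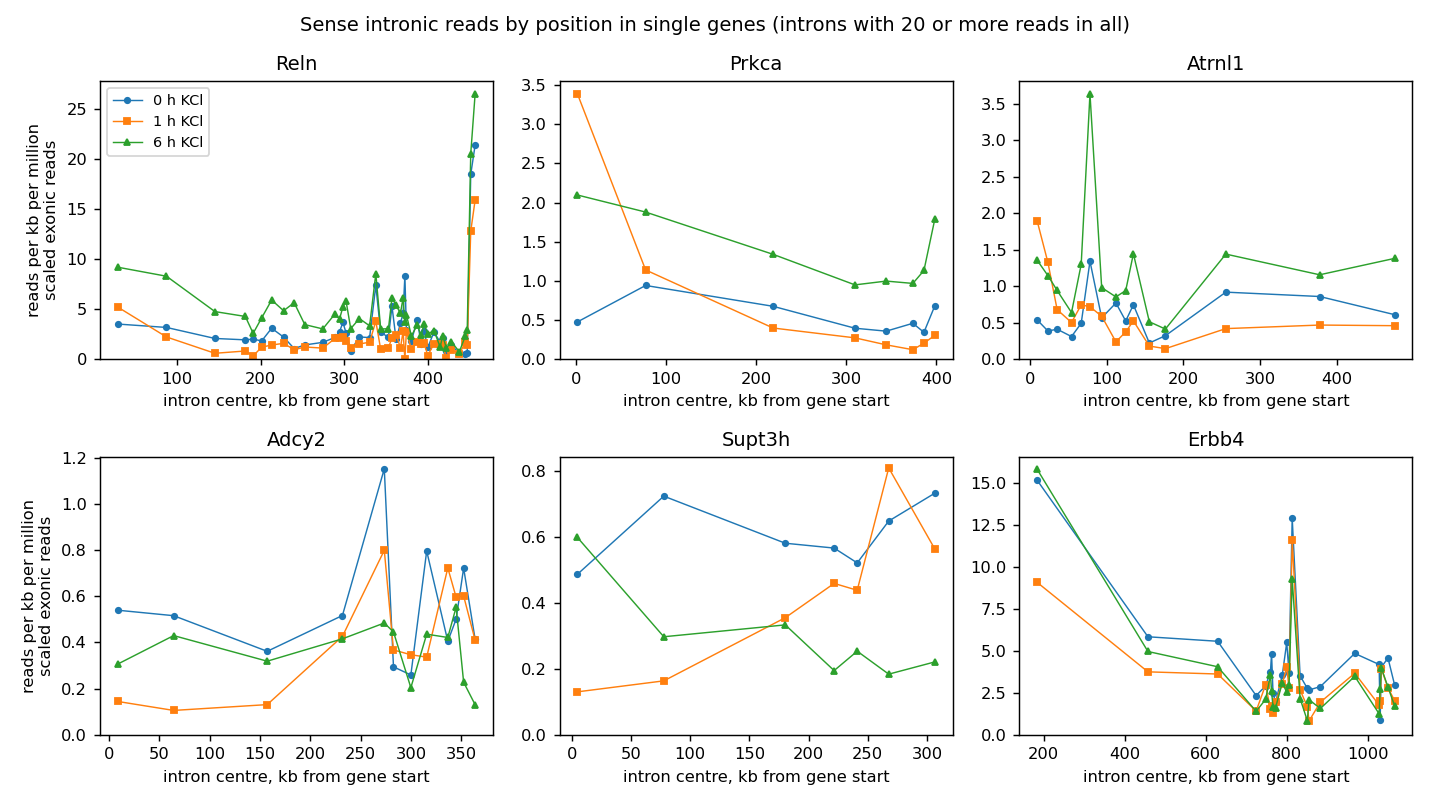
Sense intronic reads per kb of intron, relative to the scaled exonic reads of the library (y axis), against the distance of the intron's centre from the gene's start (x axis, kb) for 6 genes at 0, 1 and 6 h; each point is an intron with at least 20 reads in all. The 1 h line of Reln, Prkca and Atrnl1 starts above the 0 h line and crosses below it, and that of Adcy2 and Supt3h starts far below it and has points on both sides of it beyond about 200 kb.

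The reverse pattern, a start section below and an end section above 0 h at 1 h, was found in C130038G02Rik (Mtus2), Pde4d and Unc5c. In Pde4d, a phosphodiesterase that breaks down cyclic AMP and has many start sites along the gene, the end section had 90, 261 and 264 reads and the start section 2943, 2192 and 4054, a shift of 0.257 (0.199 to 0.330). Its intron 13, at 1290 kb from the start, had 66, 200 and 199 reads, 2.70 times more at 1 h (2.04 to 3.63). Pde4d overlaps another gene on the same strand, as does Unc5c, a netrin receptor with 94, 141 and 194 reads in its end section and a shift of 0.461 that was 0.585 with sections of equal intron length. C130038G02Rik had 109, 41 and 37 reads in its start section and 5, 18 and 5 in its end section, a shift of 0.104 that was 0.367 with sections of equal intron length.

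At 6 h some genes differed from 0 h in all 3 sections. Dock4, an activator of the small GTPase Rac, had 535, 359 and 1523 reads in its start section, 108, 135 and 360 in its middle section and 89, 69 and 212 in its end section. This was 2.69, 3.15 and 2.25 times its 0 h level at 6 h. At 1 h the sections were at 0.598 (0.522 to 0.685), 1.11 (0.859 to 1.45) and 0.691 (0.497 to 0.958). Sema5a, an axon guidance molecule, had 121, 100 and 455 intronic reads, 3.56 times its 0 h level at 6 h. Cacna1d, an L-type calcium channel, had 828, 432 and 280 reads, 0.320 times its 0 h level at 6 h. Over all very long genes, 195 of 2450 introns were higher (7.96%) and 292 lower (11.9%) at 6 h than at 0 h, close to the background of 6.54% and 10.2% of all introns. Scaled by mapped reads 264 were higher and 207 lower, so the balance between the directions turned with the scaling. From 1 to 6 h 579 of 2271 introns were higher and 47 lower, where 23.1% and 4.11% of all introns were. Summed per gene, 15 of 380 very long genes were higher and 55 lower at 6 h than at 0 h (background 3.08% and 10.5%). From 1 to 6 h 77 of 369 genes were higher and 2 lower (background 15.5% and 2.65%).

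The clearest shifts from 0 to 6 h lay in both directions. Ctnna2 (alpha-N-catenin, which links cadherins to actin) had 740, 486 and 1324 reads in its start section and 622, 375 and 446 in its end section, a shift of 2.50 from 0 to 6 h (2.14 to 2.91). Lrp1b, a lipoprotein receptor family member, had 1152, 848 and 2643 against 46, 25 and 27, a shift of 3.91 (2.37 to 6.57). Ryr3, a calcium release channel, had 96, 58 and 208 against 39, 25 and 30, a shift of 2.82 (1.60 to 4.99) that was 1.56 (0.973 to 2.48) with sections of equal intron length. Sox5, a transcription factor, had 177, 113 and 205 against 25, 9 and 3, a shift of 9.65 (2.86 to 50.6) that rests on 3 reads at 6 h and was 0.855 with sections of equal intron length. In the other direction, Arhgap24, which turns off Rac, had 47, 24 and 11 reads in its start section and 8, 3 and 17 in its end section, a shift of 0.110 (0.0329 to 0.359) that was 0.0464 with sections of equal intron length. Fhit, a gene at a fragile site, had 114, 65 and 28 against 24, 30 and 22. Utrn (utrophin) had 72, 53 and 87 against 259, 164 and 667, so it was its end section that was higher at 6 h.

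The 12 genes with most intronic reads held 24.1% of the reads of all very long genes, and all 12 were below their 0 h level at 1 h. Erbb4, the neuregulin receptor of interneurons, had most, with 17225, 11865 and 17693 reads in its start section and 1964, 1594 and 1416 in its end section. Its shift was 0.849 at 1 h (0.791 to 0.911) and 1.42 at 6 h (1.33 to 1.53), below the 2-fold limit in both. Cntnap2, a neurexin relative at axons, had 6176, 4423 and 7927 against 304, 374 and 358. Grik1, a kainate receptor subunit, had 4643, 2659 and 6429 against 1887, 1433 and 1920. Their shifts at 1 h were 0.582 (0.496 to 0.683) and 0.754 (0.693 to 0.821). The presynaptic adhesion molecule Nrxn3 lay on the other side, at 1.12 (1.05 to 1.20), and Pcdh9, a protocadherin with 3 introns, at 1.05 (0.956 to 1.14). Of the 12 genes, 7 had a shift below 1 at 1 h, 4 of them with an interval that excluded 1. At 6 h 9 had a shift above 1, 5 with such an interval. Camk1d, a calmodulin-dependent kinase, held nearly all of its reads in the start section (14729, 7898 and 9202, against 16, 7 and 10 in the end section), so its shift could not be measured closely.

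Grouped by function, every list of very long genes had lower intronic reads at 1 h, as did the very long genes as a whole. Of 46 adhesion molecules and receptor phosphatases, all were below 1 with a median ratio of 0.607, and 27 of 38 had a shift below 1 (median 0.891), where 205 of 288 very long genes did. All 15 neurotransmitter receptors were below 1 (median 0.581), as were all 24 ion channels and their partners (0.603). The same held for all 14 axon guidance and neuregulin genes (0.632), all 17 transcription factors and RNA-binding proteins (0.588) and all 16 cytoskeleton and fragile-site genes (0.595). Of the 24 signalling and scaffold genes 23 were below 1 (0.617). The median over all very long genes compared was 0.588. Those called at least 2-fold lower were 7 of 46 adhesion genes, 4 of 15 neurotransmitter receptors, 2 of 24 ion channels, 0 of 14 axon guidance genes, 2 of 24 signalling genes, 2 of 17 transcription factors and RNA-binding proteins and 2 of 16 cytoskeleton genes, beside 17.7% of the very long genes and 27.2% of all genes. Median shifts at 1 h ran from 0.743 in transcription factors and RNA-binding proteins (8 of 12 below 1) and 0.793 in axon guidance genes (11 of 12) to 0.951 in neurotransmitter receptors (8 of 14). From 1 to 6 h the median shift was 1.55, 1.39 and 1.35 in these 3 lists, and 0.974 in the cytoskeleton and fragile-site genes, where 8 of 12 were below 1.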

How the data were processed

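Per the labels' protocols, ribosomal RNA was removed from total RNA, adapters were ligated by strand, and libraries were read on a SOLiD machine from ABi. Per the file headers and counting logs, the authors kept 35 bp reads with a unique match and at most 3 mismatches on mm9 (the build named in the submitters' processing notes), kept repeated reads at 1 position, and deposited whole-number counts of sense and antisense reads per gene and lists of counts per exon and intron in transcript order. The aligner was not given in the sources used here. Intron counts as deposited were not corrected for the part of an intron in which 35 bp reads can map uniquely.

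Intron lists were split and the reads of each gene summed to the deposited gene count without exception. TMM factors came from edgeR 4.0.16 (R 4.3.3) on sense exonic counts of all genes, and alternatives used all uniquely mapped reads or all sense intronic reads. Ratios have exact Clopper-Pearson 95% intervals and shifts exact conditional 95% intervals (Python 3.11.15, numpy 2.4.6, scipy 1.17.1, pandas 2.3.3). Both were checked on data simulated with counting error only. That check cannot show how they hold with PCR copies or differences between cultures. All p-values and all leave-one-out fits were left out because each time has 1 library. The mapped reads stood at 2.45, 2.60 and 2.33 per distinct position at 0, 1 and 6 h, so intervals that count PCR copies as molecules are too narrow.

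Single genes were named by a fixed rule: the 12 with most intronic reads, and per comparison the 8 shifts to each end and the 8 higher and 8 lower introns whose interval bound nearest to 1 lay farthest from it. Reln introns 1 and 2, other introns of named genes, and the promoters shown were picked after their values were seen. The genes, the 7 gene lists and the comparisons were chosen with earlier results of these data known. Of 393 genes, 42 overlap another gene on the same strand, where reads cannot be assigned. Intron sequences were not used here. Promoter sequences came from RefSeq (GRCm38.p6) and were matched to the genes by symbol. The counts are on mm9, so the RefSeq start may differ from the start used for counting. Some genes that the naming rule selected are not reported here.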

Additional observations from a re-analysis of the deposited data

Results flagged for a closer look

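Antisense reads in these introns were left out of the ratios and shifts by position and gene given above. They numbered 33413, 21749 and 23445 at 0, 1 and 6 h, which was 6.19%, 5.88% and 4.48% of the reads on both strands. In the start section of introns the antisense share was 2.36%, 1.27% and 0.875%, and in the end section 15.0%, 17.1% and 14.3%. Most came from few introns. Intron 11 of Tmtc2 had 9587, 9121 and 8954 antisense reads against 36, 28 and 47 sense reads. It is the last of that gene's 11 introns, and the end sections of all genes held 14179, 12464 and 12791 antisense reads. The high antisense share of the end section thus came mostly from this intron. Intron 4 of Il1rapl1 had 5358, 3424 and 4405 antisense reads against 337, 284 and 445 sense reads.

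A single intron on the antisense strand was above the 0 h library, at least 2-fold with an interval excluding 1, at 1 h and another at 6 h. At 1 h this was intron 8 of Myo3b (chr2:69965050-70027599, mm9), with 5, 20 and 7 antisense reads, 3.57 times the 0 h level (1.30 to 12.2). The sense reads of this intron were 4, 18 and 16. At 6 h it was intron 16 of Snd1 (chr6:28745939-28824860, mm9), with 332, 452 and 901 antisense reads, 2.57 times the 0 h level (2.26 to 2.92). Its sense reads were 294, 166 and 175.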

How the results depend on the processing

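The shift of all very long genes together, 0.884, 1.05 and 1.19 for 1 h to 0 h, 6 h to 0 h and 6 h to 1 h, was 0.887, 1.14 and 1.29 with sections of equal intron length and 0.888, 0.995 and 1.12 without first introns. It was 0.875, 1.01 and 1.16 without the 10 introns with most reads. It was 0.976, 1.05 and 1.08 at a limit of 200000 bp and 0.924, 1.08 and 1.16 at 500000 bp. It was 0.872, 1.03 and 1.18 in genes with 10 or more introns and 0.873, 1.01 and 1.16 in introns under 100 kb (added after seeing the data) and 0.833, 1.06 and 1.29 as a median over genes. It was 0.894, 1.05 and 1.18 without same-strand overlaps and 0.884, 1.04 and 1.18 without Erbb4. The shift from 0 to 6 h thus had an interval that included 1 without first introns (0.983 to 1.007) and in introns under 100 kb (0.995 to 1.03); the cause was not tested.

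The ratios of the start, middle and end section were 0.697, 0.772 and 0.789 (1 h to 0 h), 1.05, 1.02 and 1.0024 (6 h to 0 h) and 1.51, 1.32 and 1.27 (6 h to 1 h) when scaled by mapped reads. Scaled by all sense intronic reads they were 0.786, 0.87 and 0.889 (1 h to 0 h), 1.02, 0.983 and 0.969 (6 h to 0 h) and 1.29, 1.13 and 1.09 (6 h to 1 h). They were, with sections of equal intron length, 0.579, 0.619 and 0.652 (1 h to 0 h), 1.01, 0.91 and 0.883 (6 h to 0 h) and 1.74, 1.47 and 1.35 (6 h to 1 h). The order of the sections at 1 h held in each, while the direction of 6 h against 0 h depended on the scaling.

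Introns called higher and lower numbered 7 and 558, 195 and 292, 579 and 47 in the same 3 comparisons. They numbered 19 and 313, 264 and 207, 500 and 59 scaled by mapped reads and 40 and 189, 241 and 237, 326 and 107 by intronic reads. They numbered 17 and 707, 255 and 418, 731 and 75 at a minimum of 10 reads, 2 and 281, 105 and 130, 327 and 16 at 50 reads and 20 and 1182, 333 and 518, 974 and 90 at 1.5-fold. With reads divided by the reads per position before the interval (added after seeing the data) they numbered 3 and 354, 123 and 186, 409 and 23. Genes shifted to the start and end section numbered 7 and 29, 13 and 9, 40 and 10. They numbered 7 and 25, 11 and 8, 42 and 6 by intron length and 12 and 59, 32 and 19, 79 and 14 at 1.5-fold. They numbered 8 and 29, 13 and 9, 43 and 10 at 10 reads, 6 and 21, 7 and 3, 29 and 7 at 50 reads and 3 and 15, 8 and 4, 25 and 6 with reads divided by reads per position.

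Named introns and named gene shifts are counted here once per comparison, so that some introns and genes count more than once. All 47 named intron ratios remained past the threshold under both other scalings, and 5 lost it with reads divided by reads per position. Of the named gene shifts, 26 held with sections of equal intron length, 17 were weaker and 3 reversed: Dlgap2 at 0.895, Sox5 at 0.855 and 1810044A24Rik (Trappc9) at 1.29. The shift of Arhgap24 from 1 to 6 h had no value with these sections. With reads divided by reads per position, 10 of the 47 named gene shifts were weaker. Distinct read positions per intron were not run as an alternative, because the intron lists give reads only. No paired analysis was possible because each time has 1 library, and for the same reason no library could be left out. Differences between cultures cannot be told apart from those between times, and 5431 of the introns had too few reads in every library to be compared.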
